A study of Mus musculus with 4 samples.

Results

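Glial marker genes were examined for CTCF binding in cultured mouse cortical neurons. The set held 37 genes of 21770 protein-coding genes placed on chromosomes, listed by name: 15 markers of astrocytes, 11 of the oligodendrocyte lineage and 11 of microglia. The members were a given list of standard markers, and no peak value chose them, although the list was drawn up with earlier results of these data known. CTCF was profiled by chromatin immunoprecipitation and sequencing (ChIP-seq) in 2 immunoprecipitations, described as biological replicates, with 2 input libraries. All 4 libraries came from wild-type Swiss-Webster cortical neurons, dissociated at embryonic day 16 and collected after 13 days in culture, with no treatment. The culture notes of these samples also describe etoposide, a topoisomerase drug, being added shortly before collection, whereas their treatment field reads none, so they are taken here as untreated. The deposited data are 1 joint list of 33820 peaks that passed an irreproducible discovery rate (IDR) threshold of 0.05 across the replicates.

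CTCF, a DNA-binding protein with zinc fingers, acts with the cohesin complex to anchor chromatin loops. Astrocytes clear glutamate and buffer ions around synapses, oligodendrocytes wrap axons in myelin, and microglia are the resident immune cells of the brain. Their marker genes are used to tell whether a neuronal culture holds glia, since neurons are known to transcribe most of them weakly or not at all. CTCF is known to bind many of its sites in most cell types, so a peak near a glial gene is no measure of transcription. The peak list holds no expression values, so whether glia were present in the dishes was not tested. A culture dish is a bulk sample, and a weaker site in every cell and a site bound in fewer cells cannot be told apart.

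A peak was placed by its summit. It counted as an end peak within 1 kb of either bound of the RefSeq gene, as an inside peak when it lay within the gene and over 1 kb from both bounds, and as a neighbouring peak when it lay outside, up to 50 kb away. Peak strength, as the authors deposited it, adds the −log10 p of the first replicate to that of the second, and it is used only to describe and rank peaks within this list. Its median over all peaks was 165.5. The file has no header, and its replicate columns are called first and second here by their order in it. Their medians over all peaks were 30.9 and 128.9, and the list does not give the depth of the libraries.

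Peaks at the start sites of glial genes come first, because their sequence is at hand. RefSeq start sites, with their strand, were listed for 26 of the 37 members; they were not used for Aqp4, Sox9, Atp1b2, Mbp, Myrf, Olig1, Sox10, Tmem119, Csf1r, C1qa and Tyrobp. A summit lay within 1 kb of a listed start site in 6 of the 26, namely Cnp, Olig2, Glul, Pdgfra, Fgfr3 and Slc4a4, against 27.2% of the 17491 protein-coding genes with a listed site. At 5 of these 6 the deposited peak also covered part of the sequence just before the start. Those 250 bases are shown here (RefSeq, GRCm38.p6, plus strand, 5′ to 3′), because a peak covers part of each. The window at the first start of Fgfr3, also covered, is left out. Coverage could be read only for the 26 members with a listed start. Promoters of the remaining members are therefore not shown, including those of Myrf, Olig1 and C1qa, which have end peaks. Capitals mark the letters AGGNGGC, where N is any base, or their reverse complement GCCNCCT. They are a loose form of part of the CTCF core, chosen after the sequences were seen, and a marked stretch need not be a CTCF site.
Cnp, chr11:100574689-100574938: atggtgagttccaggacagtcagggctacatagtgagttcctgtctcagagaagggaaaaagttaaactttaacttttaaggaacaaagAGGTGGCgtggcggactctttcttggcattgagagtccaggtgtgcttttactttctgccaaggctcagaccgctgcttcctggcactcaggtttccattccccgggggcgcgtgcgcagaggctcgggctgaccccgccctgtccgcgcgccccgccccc
Olig2, chr16:91225300-91225549: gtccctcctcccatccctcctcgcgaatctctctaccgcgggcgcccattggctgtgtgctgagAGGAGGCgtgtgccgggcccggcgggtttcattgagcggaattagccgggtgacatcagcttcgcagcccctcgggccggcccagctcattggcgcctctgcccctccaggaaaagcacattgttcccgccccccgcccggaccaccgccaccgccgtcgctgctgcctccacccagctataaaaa
Glul, chr1:153899679-153899928: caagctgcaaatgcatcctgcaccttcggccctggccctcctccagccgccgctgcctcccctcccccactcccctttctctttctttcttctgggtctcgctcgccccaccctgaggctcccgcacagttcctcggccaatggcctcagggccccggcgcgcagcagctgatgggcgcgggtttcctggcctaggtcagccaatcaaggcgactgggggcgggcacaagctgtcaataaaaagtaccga
Fgfr3, the second listed start, chr5:33722056-33722305: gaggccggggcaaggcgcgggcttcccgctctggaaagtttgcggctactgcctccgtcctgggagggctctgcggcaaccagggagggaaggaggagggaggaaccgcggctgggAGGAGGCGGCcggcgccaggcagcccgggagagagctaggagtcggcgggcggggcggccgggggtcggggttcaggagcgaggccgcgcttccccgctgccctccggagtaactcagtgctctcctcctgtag
Slc4a4, an inner start, chr5:88887010-88887259: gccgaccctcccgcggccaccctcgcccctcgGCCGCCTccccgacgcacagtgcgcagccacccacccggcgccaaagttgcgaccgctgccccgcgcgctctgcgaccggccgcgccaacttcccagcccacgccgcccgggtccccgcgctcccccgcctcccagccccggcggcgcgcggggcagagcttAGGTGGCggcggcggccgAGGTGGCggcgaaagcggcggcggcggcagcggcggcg

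The summits themselves lay outside all 5 windows. They stood 387 bp past the start of Cnp, 667 bp before that of Olig2, 704 bp past that of Glul, 804 bp past the second start of Fgfr3 and 648 bp before the inner start of Slc4a4. The windows were rich in CG pairs, with 13 at Cnp, 22 at Olig2, 15 at Glul, 24 at Fgfr3 and 44 at Slc4a4, against a median of 6 over the 32851 listed promoters. The letters AGGNGGC or GCCNCCT stood in 11 of the 33 promoter windows of members, each read from 250 bases before to 50 after the start, against 29.4% of all. A longer form of the core, read on both strands as CCA, 2 free bases, AG, 2 free bases and GGC, was in 0 of 33 member windows, against 2.43% of all. A looser form, which frees the A of CCA, was also in 0, against 8.61%. These forms overlap one another, and a match or its absence describes only the letters in the window.

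Over the whole set, 11 of 37 members (29.7%, exact Clopper-Pearson 95% interval 15.9 to 47.0) had an end peak, against 29.2% of all protein-coding genes. The share lay at the background. Inside peaks occurred in 13 members (35.1%, interval 20.2 to 52.5), against 35.5% of all genes. A peak inside or within 50 kb was present at 36 members (97.3%, interval 85.8 to 99.9), against 82.9%. The exception was Itgam. The intervals cover counting error only, and genes are not replicates.

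The same counts were made for each of the 3 marker groups. In the oligodendrocyte lineage 5 of 11 genes (45.5%, interval 16.7 to 76.6) had an end peak and 7 (63.6%, interval 30.8 to 89.1) an inside peak. Among astrocyte markers 5 of 15 (33.3%, interval 11.8 to 61.6) had an end peak and 6 (40.0%, interval 16.3 to 67.7) an inside peak. Among microglial markers 1 of 11 (9.09%, interval 0.23 to 41.3) had an end peak, and 0 of 11 had an inside peak, for which the exact interval reaches 28.5%. These differences between groups were not tested. Either kind of peak was present at 10 of 11 oligodendrocyte genes, 10 of 15 astrocyte genes and 1 of 11 microglial genes, against 51.6% of all protein-coding genes. With windows of 5 kb an end peak was counted at 7 oligodendrocyte genes, 11 astrocyte genes and 4 microglial genes, against 51.3% of all protein-coding genes.

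**Figure D1:**
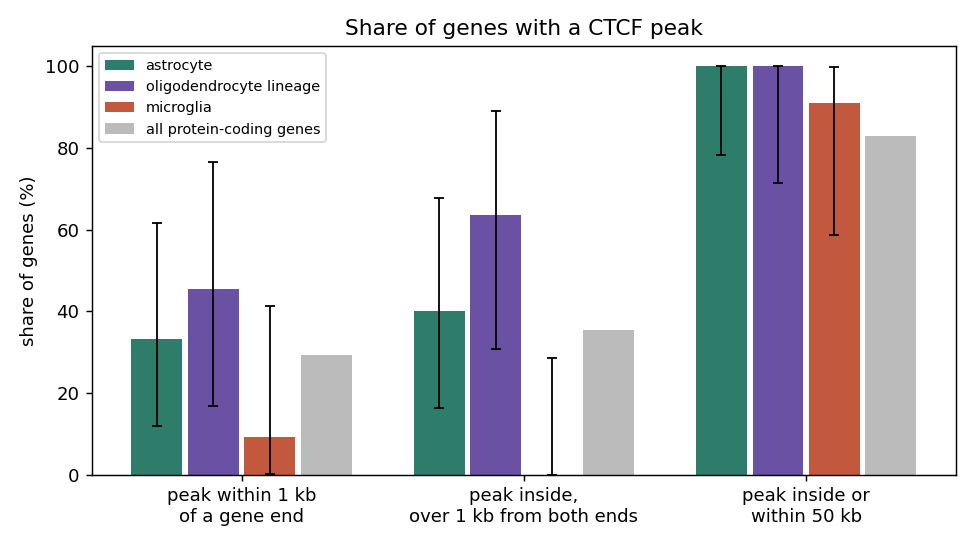
Share of genes (%) with a CTCF peak within 1 kb of a gene end, deeper inside the gene, or inside or within 50 kb, for the 3 marker groups and for all protein-coding genes. Error bars are exact 95% binomial intervals. Among these members, oligodendrocyte lineage genes stand highest for inside peaks (63.6%) and microglial genes have none, against 35.5% of all genes.

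Gene length moved with the groups. The median length was 16967 bp for oligodendrocyte lineage markers, 10311 bp for astrocyte markers and 6075 bp for microglial markers, against 17220 bp for all protein-coding genes. Of the 17 members under 10 kb, 6 had an end peak and 3 an inside peak, against 21.5% and 8.61% of all genes of that length. Of the 9 members of 10 to 30 kb, 1 had an end peak and 2 an inside peak, against 29.6% and 33.1%. Of the 8 members of 30 to 100 kb, 3 had an end peak and 5 an inside peak, against 33.7% and 57.2%. The 3 members of 100 kb or more (Slc1a2, Slc4a4 and Mbp) all had inside peaks and 1 had an end peak, against 83.9% and 43.1% of all genes so long. Among microglial markers 7 of 11 were under 10 kb. P2ry12 and Itgam, the 2 microglial genes of 30 to 100 kb, had no end or inside peak. The part of gene length in the difference between groups was not tested.

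**Figure D2:**
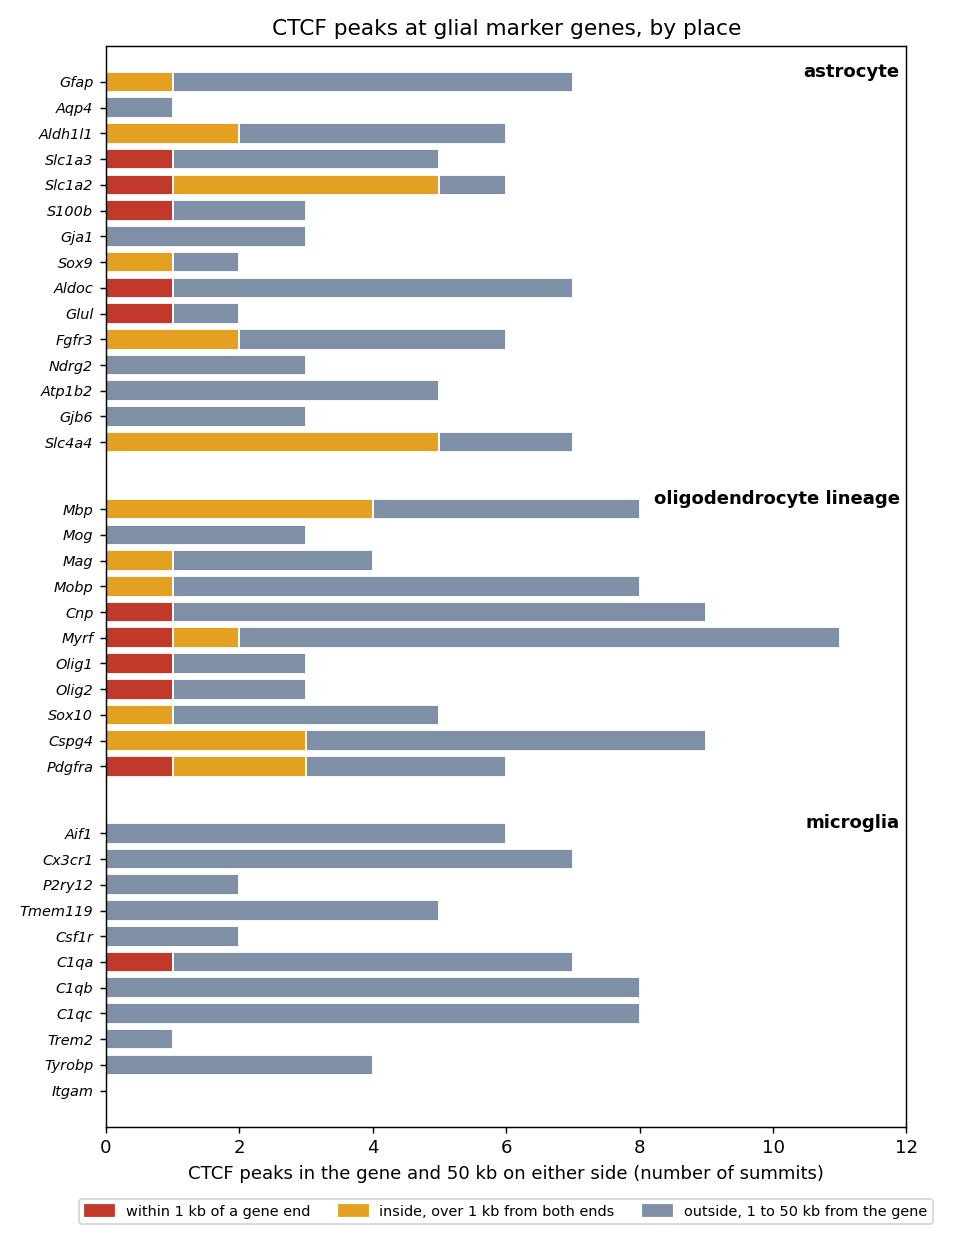
Number of CTCF summits in each gene and 50 kb on either side (horizontal axis), split by colour into end, inside and neighbouring peaks, for each of the 37 genes. Myrf has the most (11) and Itgam none, and no microglial gene has an inside peak.

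Among astrocyte markers, Slc1a3, Slc1a2, Glul, S100b and Aldoc had an end peak. With windows of 500 bp only Aldoc among them kept it, against 20.4% of all protein-coding genes with an end peak so defined. Slc1a3 encodes the glutamate transporter GLAST, and its end peak (chr15:8632997-8634217) lay 553 bp beyond the 3′ bound. The values were 52.2 and 173 in the first and second replicate columns, a strength of 226. Slc1a3 had no inside peak in its 76684 bp, and its other 4 peaks lay 4763 to 44180 bp beyond the same bound, with strengths from 113 to 471. The nearest summit on the side of its start was 138754 bp away.

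Slc1a2 encodes GLT-1, the main glutamate transporter of the adult forebrain. Its end peak (chr2:102658259-102659824) had values of 62.3 and 88.2, a strength of 151. It lay at the outer 5′ bound of the RefSeq gene, 47604 bp before the listed start site. The gene held 4 inside peaks, 3 of them between that bound and the listed start, with strengths from 89.5 to 148. All 5 were below the list's median strength.

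Glul encodes glutamine synthetase, which turns glutamate into glutamine. Its start-site peak (chr1:153899652-153901391), described above with its promoter, was among the weakest of the list, with values of 20.5 and 18.3, a strength of 38.8 and a rank of 32991 of 33820. The stronger peak near Glul (230) lay 4821 bp before the gene.

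The remaining astrocyte end peaks lay at 3′ bounds. S100b encodes a calcium-binding protein, and its peak (chr10:76260440-76261538) had values of 11.5 and 62.1. Aldoc encodes the brain aldolase, and its peak (chr11:78327506-78329234), with values of 14.9 and 111, lay 485 bp past the gene. The Aldoc summit also lay within 1 kb of an end of Pigs. When ends shared with another protein-coding gene were left out, Aldoc was the 1 member that lost its end peak, leaving 10. By annotated strand, the astrocyte end peaks were therefore at the 3′ bound for Slc1a3, S100b and Aldoc and at the 5′ bound for Slc1a2 and Glul.

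Inside peaks marked 6 astrocyte genes. Slc4a4 encodes a sodium bicarbonate cotransporter, and in its 445799 bp it held 5, the most of any member. The strongest (chr5:88928055-88930226) had values of 71.4 and 232, a strength of 303. The peak at its inner start (chr5:88886215-88887887) had 55.5 in the first column and 31.0 in the second. This order, the first column above the second, was found in 9.26% of all peaks.

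Aldh1l1, a folate enzyme gene used to label astrocytes, held 2 inside peaks with strengths of 310 and 53.0. It was flanked by stronger peaks on both sides, one 12594 bp before the gene (311 and 361, strength 672) and one 7845 bp after it (209 and 426, strength 635). Fgfr3, a fibroblast growth factor receptor gene, held 2 inside peaks. The wide one over its start region (chr5:33721496-33723831) had values of 42.5 and 28.6 and a strength of 71.1. A summit 1053 bp past the 3′ bound of Fgfr3 (strength 263) fell just outside the 1 kb window.

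Gfap, the intermediate filament gene by which astrocytes are most often stained, held 1 inside peak. Its values were 25.3 and 30.6, a strength of 55.9 (chr11:102892671-102893743). The strongest summit near Gfap lay 3767 bp before its start, with values of 56.5 and 316, a strength of 372. Sox9, a transcription factor gene of the astrocyte lineage, held an inside peak with 43.3 in the first column and 18.8 in the second (chr11:112784324-112785423). A stronger peak (74.8 and 399, strength 474) lay 2212 bp below its lower bound. On the other side of Sox9 the nearest summit was 377553 bp away.

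The other 5 astrocyte genes had neighbouring peaks only. The gap junction gene Gja1 had its nearest summit 4063 bp before the gene (strength 248) and none for 611144 bp beyond it. Gjb6, another gap junction gene, had its nearest 13930 bp beyond its 3′ bound (strength 377). A second Gjb6 neighbour lay at an end of its paralogue Gjb2, with 208 in the first column and 141 in the second. Ndrg2, which is highly expressed in astrocytes, had its nearest summit at 2248 bp (strength 145). Atp1b2, a subunit gene of the sodium pump, had its nearest summit 8198 bp away, and its 5 neighbours had strengths from 311 to 972. Aqp4 encodes the water channel of astrocyte end feet. It had 1 peak within 50 kb, 37498 bp away, with a strength of 119.

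In the oligodendrocyte lineage, the strongest end peak of any member was at Myrf, the transcription factor gene that drives myelin genes. It lay 60 bp beyond the upper bound (chr19:10240278-10241399), with values of 644 and 485, a strength of 1129 and a rank of 520 of 33820. Both values were far above the column medians of 30.9 and 128.9. Myrf also held 1 inside peak (strength 182) and had 9 neighbours. The total of 11 was the highest of the 37 genes, and the neighbours included peaks at ends of Fads1, Fen1 and Dagla.

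Olig2 and Olig1 encode paired transcription factors that specify the lineage, and 41091 bases lie between them. The peak before the Olig2 start (chr16:91224516-91225472) had values of 47.9 and 106, a strength of 154. The Olig1 peak lay inside the 2171 bp gene (chr16:91269427-91271414), 681 bp from its lower bound, and was weak, with values of 21.8 and 20.7. Each gene of the pair carried its own peak. The next summits lay 7392 bp below Olig2 (strength 73.8) and 42393 bp above Olig1 (strength 278). Sox10, which acts beside Olig2, held an inside peak 1473 bp from its upper bound, with 55.5 in the first column and 37.4 in the second. Its strongest neighbour (435) lay 6112 bp below the gene, inside Polr2f.

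Pdgfra and Cspg4 are used as markers of oligodendrocyte precursors. Pdgfra encodes the receptor by which precursors are sorted. Its end peak (chr5:75151042-75151836) lay 4 bp outside the 5′ bound, with values of 49.3 and 93.8, a strength of 143. An inside peak 5094 bp into the gene (chr5:75155456-75157476) had values of 446 and 482, a strength of 928, and was the strongest inside peak of all members at rank 905. Cspg4 encodes the NG2 proteoglycan. It had no end peak but held 3 inside peaks, of which the middle one (chr9:56889171-56892101) had values of 179 and 305, a strength of 484. Another of them was higher in the first column, at 41.7, than in the second, at 18.1.

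Among myelin genes, only Cnp, the gene of a myelin phosphodiesterase, had an end peak. It is the start-site peak described above (chr11:100574774-100575902), with values of 48.3 and 133, a strength of 181. Beyond the 3′ bound of Cnp lay 4 strong neighbours between 27914 and 48363 bp, with strengths of 823, 998, 433 and 847, all at or inside Dnajc7, Nkiras2 or Zfp385c. Mbp encodes myelin basic protein and held 4 inside peaks. The strongest (chr18:82567308-82569858) had values of 97.7 and 502, a strength of 600, and lay 16566 bp from the upper bound. The other 3 had strengths from 98.3 to 258.

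Mag, a myelin adhesion molecule gene, held 1 inside peak (25.04 and 120, strength 145). It had the strongest neighbour of any member, a peak at an end of Usf2 with values of 550 and 723, a strength of 1273, 41219 bp away. Mobp, another myelin gene, held 1 inside peak (13.8 and 70.7, strength 84.5) and had 7 neighbours. Mog encodes a glycoprotein of the outer myelin surface and was the 1 oligodendrocyte gene with neither an end nor an inside peak. Its nearest summit was 13511 bp away, at an end of H2-M5 (strength 232).

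**Figure D3:**
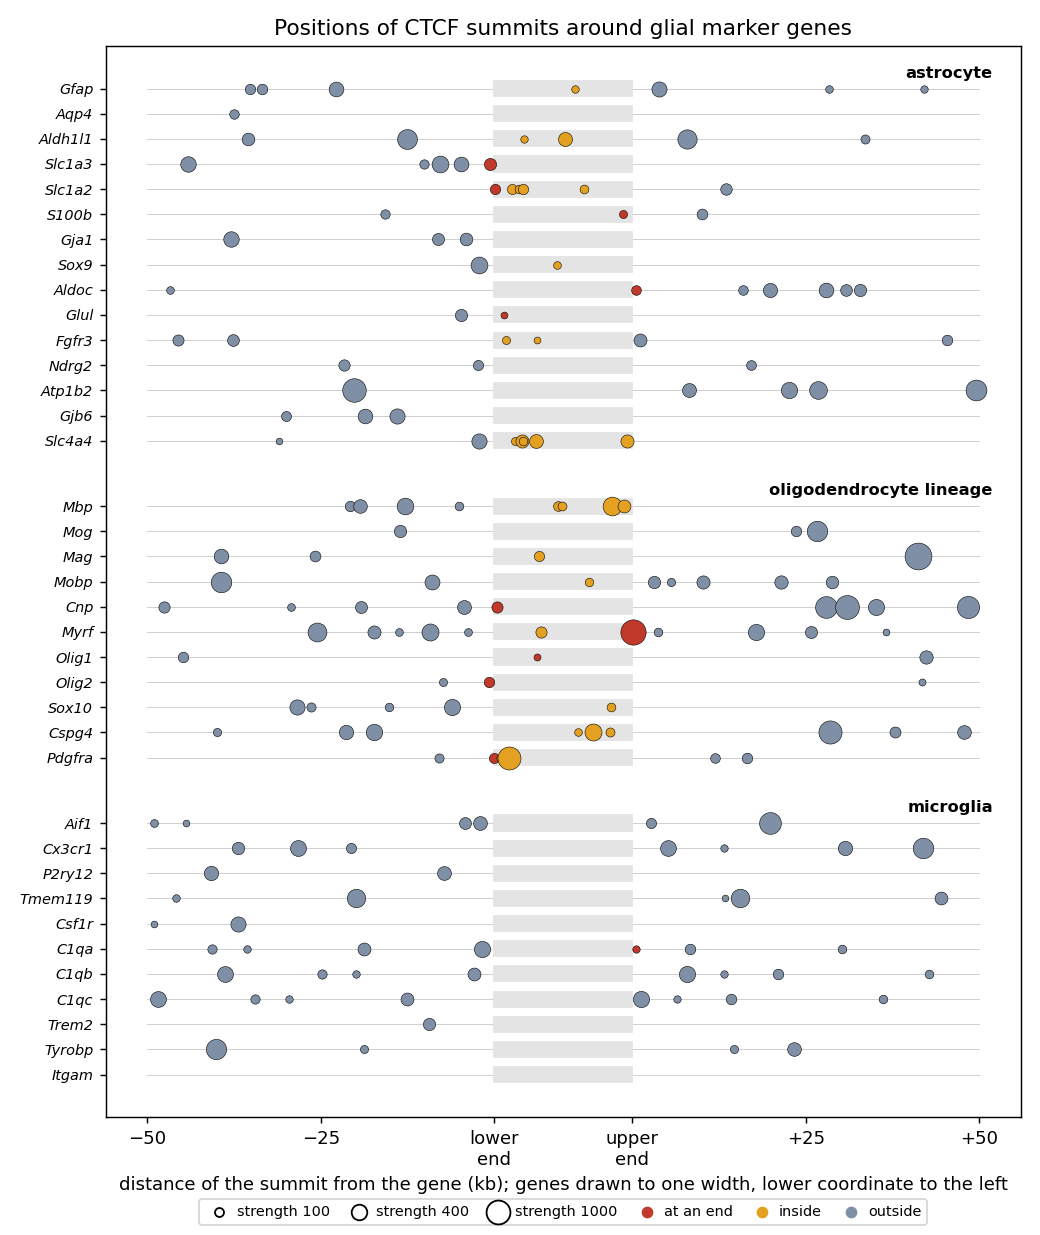
Positions of CTCF summits relative to each gene, in kb outside the gene bounds, with all genes drawn to one width and the lower coordinate on the left. Point area grows with peak strength and colour gives the place. Microglial genes (bottom block) have empty gene bodies, while the strong points at Myrf (1129) and Pdgfra (928) lie at and in the gene.

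At microglial markers CTCF peaks lay beside the genes. The complement genes C1qb, C1qc and C1qa, whose products form the recognition subunit of the classical pathway, sit in a row with 3600 and 2979 bases between them. The single end peak of this group lay 491 bp beyond the upper bound of C1qa (chr4:136899012-136899771) and was weak, with values of 9.91 and 43.1, a strength of 53.0. A stronger peak (142 and 293.5, strength 436) stood between C1qc and C1qa. It was 1200 bp from C1qc and 1780 bp from C1qa, so it missed the 1 kb window of both. Another (97.1 and 161, strength 258) stood 2940 bp below C1qb. These peaks leave C1qb and C1qc together in an interval of 17.0 kb between summits, and C1qa in one of 5.20 kb.

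The receptor genes of microglia and their adaptor had between 0 and 7 peaks within 50 kb. Itgam encodes the CD11b integrin and had no peak within 50 kb, its nearest summits being 70621 bp below and 89918 bp above. Trem2, an innate receptor gene, had 1, at 9332 bp (35.1 and 193, strength 228). Csf1r encodes the receptor on which microglial survival depends, and its nearest summit was 36948 bp away, inside Pdgfrb (strength 375). P2ry12, a purinergic receptor gene, had 2, of which the nearer (38.1 and 264, strength 302) lay 7177 bp away inside P2ry13 and Med12l. Cx3cr1, the fractalkine receptor gene, had 7, the nearest 5066 bp before its start (148 and 261, strength 408). Tyrobp, the signalling adaptor gene of Trem2, had 4, the nearest 14640 bp away (11.04 and 65.03, strength 76.1).

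Aif1 and Tmem119 completed the group. Aif1 encodes the IBA1 protein used to stain microglia, and was closely flanked, with summits 2013 bp below (strength 304) and 2609 bp above (strength 144). The peak near Aif1 with the highest strength (420 and 403, strength 823) lay at an end of Ltb. Tmem119 had 5 neighbours, the strongest with values of 219 and 369, a strength of 589, 15572 bp above the gene.

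All members together had 167 distinct peaks within 50 kb, of which 11 were end peaks, 28 inside peaks and 128 neighbours. The median number per gene was 6 for oligodendrocyte lineage genes, 5 for astrocyte genes and 5 for microglial genes, against 3 for all protein-coding genes. In the microglial median C1qa, C1qb and C1qc entered separately, with 7, 8 and 8 peaks that they share. Of the neighbours, 29 lay at an end of another protein-coding gene, 35 deeper inside one and 64 in neither, shares of 22.7%, 27.3% and 50.0%, against 18.02%, 43.56% and 38.42% of all peaks. Neighbours lie outside the members by definition, whereas all peaks include those inside every gene, so these shares are not directly comparable. End and inside peaks of members had median strengths of 143 and 100.3, against 160.7 and 152.2 for all peaks at ends of and inside protein-coding genes. Members' 128 neighbouring peaks had a median of 239, against 165.5 for all peaks. All peaks in neither place had a median of 181, but only 64 of the 128 neighbours lay in neither, so those 2 sets are unlike. In all, 95 of the 167 peaks (56.9%) were above the list's median strength.

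The distance from the nearest summit below a gene to the nearest above it was also measured, gene included and peaks within the gene disregarded. Its median was 58.8 kb for oligodendrocyte lineage genes, 114.4 kb for astrocyte genes and 40.0 kb for microglial genes, against 107.9 kb for all protein-coding genes. C1qb and C1qc, which share an interval of 17.0 kb, entered the microglial median separately. The widest were at Gja1 (628 kb), Slc4a4 (593 kb) and Sox9 (385 kb). The narrowest were at C1qa and at Aif1 (9.72 kb). The intervals of the members thus spread from 5.20 to 628 kb, and those of astrocyte and microglial genes overlapped.

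The balance of the replicate columns was described by place, with no test. The first column exceeded the second in 3 of 11 end peaks of members (Myrf, Olig1 and Glul), against 28.9% of peaks at ends of protein-coding genes. It did so in 5 of 28 inside peaks (Sox9, Fgfr3, Slc4a4, Sox10 and Cspg4), against 6.96% of peaks inside protein-coding genes. Those of Fgfr3 and Slc4a4 lay 804 and 648 bp from a listed start site and count as inside by their distance from the gene bounds. Among neighbours the first column was higher in 6 of 128, against 9.26% of all peaks, wherever placed. On the log2 scale the ratio of the second column to the first had a median of 1.15 at end peaks of members, against 0.40 at all ends of protein-coding genes. It was 1.26 at inside peaks of members, against 1.95 inside all protein-coding genes. Among neighbours it was 1.84, against 1.91 over all peaks and 2.22 over peaks at no end of and inside no protein-coding gene. The list does not give sequencing depth, and its part in these values was not tested.

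**Figure D4:**
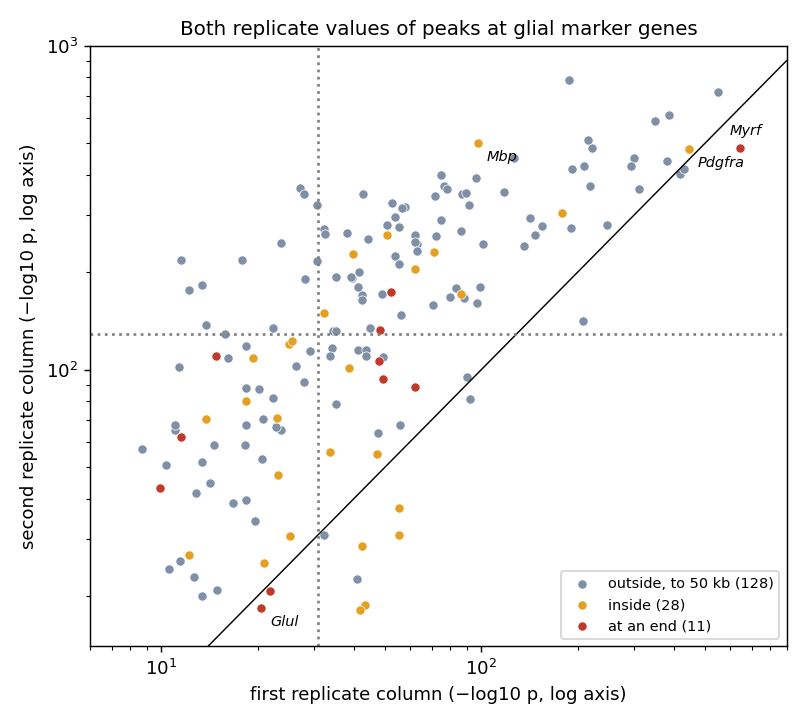
Values (−log10 p, both axes on a log scale) in the first and second replicate columns for the 167 peaks at or near glial marker genes, coloured by place. The solid line marks equal values and dotted lines the medians of all peaks (30.9 and 128.9). Most points lie above the line, and Myrf and Glul are among those below it.

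Further markers of the same cell types, 15 for each, were counted in the same way, against the same 29.2% of all protein-coding genes with an end peak and 35.5% with an inside peak. Of further astrocyte genes 6 had an end peak and 4 an inside peak, with the strongest end peaks at Ttyh1 (1184), Clu (752) and Hes5 (160). Ttyh1 encodes a proposed anion channel, Clu the chaperone clusterin and Hes5 a Notch target. Of further oligodendrocyte lineage genes 7 had an end peak and 4 an inside peak, with the strongest end peak at the fatty acid hydroxylase gene Fa2h (436). Inside peaks were thus at 63.6% of the oligodendrocyte lineage members but at 26.7% of the further genes of that lineage. This difference was not tested. Of further microglial genes 5 had an end peak and 3 an inside peak, with the strongest end peaks at Spi1 (647), which encodes the transcription factor PU.1, and Olfml3 (313). End peaks were thus counted at 1 of 11 microglial members and at 5 of 15 further microglial genes, and this difference was not tested. The median length was 6075 bp for the microglial members and 18210 bp for the further microglial genes. The part of gene length in this difference was not tested either. Of 15 neuronal markers 4 had an end peak and 10 an inside peak. The strongest of these end peaks were at the neuronal tubulin gene Tubb3 (555), at Gad1 (455), which makes the transmitter GABA, and at the transcription factor gene Neurod6 (264). The median length of the neuronal markers was 52078 bp, above that of each glial group. Inside peaks were present at 4 of the 7 neuronal markers of 30 to 100 kb and at 2 of the 3 of 100 kb or more, against 57.2% and 83.9% of all genes of those lengths. They were also present at 2 of the 3 under 10 kb and 2 of the 2 of 10 to 30 kb, against 8.61% and 33.1%. The part of gene length in the neuronal count was not tested.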

How the data were processed

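CTCF ChIP-seq of 2 immunoprecipitations and 2 inputs gave 1 deposited list. Per the submitters' processing notes, FastQC, Trimmomatic, BWA, SAMtools and MACS2 were used with the builds mm10 and GRCm38.p6; the sources used here give neither versions nor thresholds. The deposited −log10 p of each replicate, their sum and the −log10 IDR are the authors' values, and so is the rescaled IDR score, which the authors deposited and which was not analysed further. The layout of the list is that of peaks called per replicate and then joined. Inputs have no values in it, and the file ties no column to a labelled replicate. Depth per library is unknown.

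Genes came from RefSeq GRCm38.p6 (49591 on chromosomes, 21770 protein-coding), and all 37 members were found. Genes on scaffolds were dropped. Start sites and promoters came from a RefSeq table of the same build. Members, gene lists and named genes (every member, and the 3 strongest end peaks of each further list, of which some are not reported here) were chosen with earlier results of these data known, so no list was tested: counts stand beside those of all protein-coding genes. The AGGNGGC motif was added after the sequences were seen. Intervals are exact Clopper-Pearson at 95%. The placement code was tested on simulated data: all 200 planted peaks were placed as planted. Short genes, end peaks at upper bounds and neighbours below the lower bound were not among the planted cases. Scripts ran in Python 3.11.15 with scipy 1.17.1, numpy 2.4.6, matplotlib 3.10.9 and pandas 2.3.3.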

Additional observations from a re-analysis of the deposited data

How the results depend on the processing

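Of 96 alternative values, 59 stayed within 1.5 times the reported count. Members with an end peak (11 in all, 5 astrocyte, 5 oligodendrocyte lineage, 1 microglial) became, in that order, 22, 11, 7 and 4 with windows of 5 kb, and 5, 1, 3 and 1 with 500 bp. They became 7, 3, 4 and 0 at an IDR of 0.01. Among peaks above the median joint strength they were 3, 1, 2 and 0, above the first replicate column's median 6, 2, 4 and 0, and above the second's 3, 1, 2 and 0. Shares of all protein-coding genes under these settings were 51.3%, 20.4%, 23.3%, 14.9%, 21.1% and 13.1%. Counting any base of the peak gave 2 microglial genes with an end peak, against 36.1% of all protein-coding genes. Members with an inside peak (13 in all, 6 astrocyte, 7 oligodendrocyte lineage, 0 microglial) became 6, 2, 4 and 0 above the median joint strength and the same numbers above the median of the second column, against 22.2% and 22.3% of all genes. Peaks near members (167, 66, 67 and 35) became 266, 95, 96 and 80 within 100 kb, 101, 42, 41 and 18 within 20 kb, and 95, 36, 40 and 20 above the median joint strength. Members with a peak inside or within 50 kb stayed between 33 and 37 under all 7 alternatives run for that count. The share of all protein-coding genes ran from 71.4% to 87.8% under the same settings. Leaving out a replicate would need peaks called anew, and this was not done. The cuts at each replicate column's own median only select within the joint list. They cannot show what either replicate alone would give. No paired analysis was possible because the list holds 1 condition, with no input values and no comparison between sample groups. Most end peaks of members are near or below the median strength, so their counts depend on the threshold. Depth is unknown, and its part in weak peaks such as those of Glul, Olig1 and C1qa was not tested.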

Other observations

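Some peaks near glial genes were neighbours of more than 1 member. Of the 167 peaks, 11 lay within 50 kb of 2 or 3 members. Of these, 8 belonged to the C1q row and 2 to the Olig pair. The remaining one lay at an end of Slc25a38 (values of 216 and 510.5, strength 726), between the microglial gene Cx3cr1 and the myelin gene Mobp, 41996 bp from the first and 39450 bp from the second. Cx3cr1 and Mobp are 81445 bases apart on chromosome 9, and 5 summits lay in that stretch, the last of them 8917 bp from Mobp.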
